A study of Mus musculus with 25 samples.

Results

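Joins between a Cas9-cut bait end and a Ter array were selected on the number of bases that bait and array share at the join. The set holds 501 junctions with 4 or more shared bases, out of 5765 array joins with a called structure, 5773 array joins listed and 11867 junctions in all 10 tables. Members lay in a 252-position window of the reporter cassette that holds 6 Ter elements, and the overlap of the bait match and the array match within the read was the shared stretch. The overlap length chose the members, so lengths and shares of 4 or more are given as descriptions except where conditions are compared, which the rule did not use.

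The cells were mouse embryonic stem cells grown on a feeder layer, and junctions were mapped 48 h after transfection by LAM-HTGTS, a translocation assay in which linear amplification reads outward from a bait break into the DNA joined to it. All groups carried the 4-kb 1xGFP cassette with its Ter array in ROSA26 and received Cas9 with a gRNA that cuts 30 kb away. The genotypes were BRCA1del/exon11 and BRCA1flox/exon11, called BRCA1del and BRCA1flox here, and both carry the exon11 allele. Tus was combined with siRNA to luciferase (the control), BLM, BRCA1 or FANCM in both genotypes, with 3 samples each in BRCA1del and in BRCA1flox siFANCM and 2 in the other BRCA1flox groups. I-SceI and EV were each given to 2 samples of BRCA1del cells with siFANCM. The labels do not say whether samples of a group were separate clones or cultures.

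Each table pooled the samples of its group. Read names separated 4 sequencing runs, A to D, and a group had as many runs as labelled samples, so group and run together define 25 libraries, which stand in for replicates here. Libraries held 148 to 933 junctions, and Tus libraries 71 to 490 array joins. In all 8 groups sequenced in runs C and D, both runs carried the same 5-base barcode at the read start, so the barcode does not separate them. No member of one of these runs had the same position, strand, bait end and far end as a member of the other run of its group (0 shared over 3572 pairs of members), against 1 over 4830 pairs in other runs of a group and 23 over 110606 pairs in different groups. Nothing says that the libraries came from separate cultures, so p-values over them rest on a spread that may be technical only. Intervals cover counting error only.

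Tus is a bacterial protein that binds Ter elements and blocks replication forks arriving from one side. Microhomology-mediated end joining anneals short identical stretches that end resection has exposed, and polymerase theta is its best known polymerase; classical non-homologous end joining needs little or no shared sequence. BRCA1 promotes resection and homologous recombination and protects stalled forks, FANCM remodels them, and BLM is a helicase that dissolves recombination intermediates.

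The bait read from the primer to a consensus end at base 145, and its last 46 bases are printed from base 100 to base 145, first with the bases used in the leading leftward matches in capitals, then with those of the leading rightward matches. A leftward join runs from the bait into the array toward lower cassette positions, and a rightward join toward higher positions.
Bait end, leftward matches: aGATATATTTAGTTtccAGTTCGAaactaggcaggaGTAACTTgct
Bait end, rightward matches: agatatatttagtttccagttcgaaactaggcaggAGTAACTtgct

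The joins below carried most members. Each shows up to 20 bait bases, the shared bases in capitals, and the 12 array bases that follow.
ACTT join, 142: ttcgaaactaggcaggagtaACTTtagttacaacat
TTTAGTT join, 113: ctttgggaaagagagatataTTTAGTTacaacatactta
AGTT join, 120: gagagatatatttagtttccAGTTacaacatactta
ACTT second flank: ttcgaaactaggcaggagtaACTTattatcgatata
TCGA join, 123: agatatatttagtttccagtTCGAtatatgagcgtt
GATATAT join, 107: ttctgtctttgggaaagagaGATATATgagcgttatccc
ACTT other flank: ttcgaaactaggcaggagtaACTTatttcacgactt
CTTT join, 90: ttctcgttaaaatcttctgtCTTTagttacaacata
Rightward AGTA join, 138: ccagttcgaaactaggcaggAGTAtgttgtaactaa
Rightward GTAACT join, 141: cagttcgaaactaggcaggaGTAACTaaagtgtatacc
Long-loss TTAGT join, 52: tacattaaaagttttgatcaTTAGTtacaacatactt
Long-loss AGTT join, 40: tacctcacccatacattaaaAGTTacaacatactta
The number in each name is the last bait base of the match. The first 3 joins, the CTTT join, the AGTA join and both long-loss joins lie inside the Ter element with all 12 array bases shown. Its 23 bases recur 6 times, so each of these joins fits 6 places in the array. The other joins shown fit 2 places, 1 in each copy of a 116-bp repeat that holds 3 Ter elements. Of these, the other ACTT joins and the GTAACT join also have their shared bases inside a Ter element, and run out of it in the bases that follow.

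Members were dominated by short overlaps at a few bait positions. Of the 501 members, 351 (70.1%) shared 4 bases, 41 shared 5, 39 shared 6 and 70 shared 7, and none shared more. Just outside the minimum, 552 array joins shared 3 bases, the commonest being AAC at bait base 140 (60 joins) and AGT at bait base 137 (51 joins). The members used 43 combinations of shared bases, bait position and orientation, of which 12 were seen once, and 14 combinations with 10 or more joins held 427 members (85.2%). Guanine and cytosine made up 23.3% of the shared bases, against 37.0% of the bait end window and 31.1% of the array window. Their share in the matches on offer was not measured, so these values do not show a preference for matches poor in guanine and cytosine.

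ACTT at bait base 142, which leaves 3 bait bases unused, was the commonest match with 122 members (24.4%), spread over 4 array flanks; 68 continued into the Ter element, 27 into the second flank shown and 20 into the other one shown. The 7-base TTTAGTT at bait base 113 followed with 56 members (11.2%), and AGTT at bait base 120 with 52 (10.4%). Both lead into the same Ter bases, and they differ in the bait stretch that the join keeps. GTAACT at bait base 141, 6 bases, was the commonest rightward match with 36 members, and AGTA at bait base 138 the next with 29. TCGA at bait base 123 had 22 members, GTAA at bait base 139 had 20, and CTTT at bait base 90 and the 7-base GATATAT at bait base 107 had 14 each. ACTT joins occurred in 21 of 21 Tus libraries, TTTAGTT joins in 20, AGTT joins in 19 and GTAACT joins in 18, so the leading matches were not set by 1 library.

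**Figure D1:**
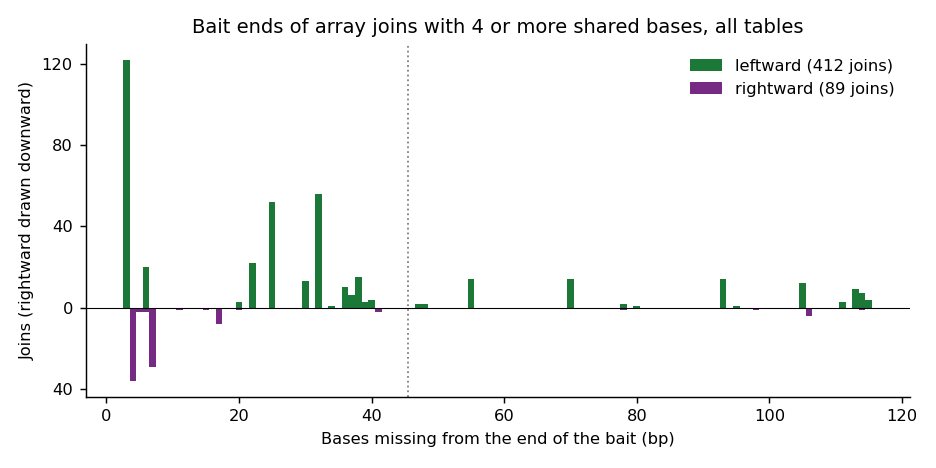
Members by the number of bases missing from the 145-base bait, in base pairs, over all tables; leftward joins are drawn upward and rightward joins downward, and the dotted line marks the start of the last 46 bait bases. Single bait ends hold most joins, with 122 leftward joins at 3 missing bases and 56 at 32.

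The matches that the bait end and array offer were then listed and set beside those used. Within the last 46 bait bases there were 92 places in the array window where bait and array shared 4 or more bases, 46 leftward and 46 rightward. They made 44 different join sequences, of which 31 were found over all tables and 13 were not. Among the 31, some rightward ones occurred with I-SceI only, such as TAAC at bait base 140. The 13 unused ones were all rightward and included the 6-base ATATAT at bait base 107. At the 92 places Tus joins were leftward in 318 and rightward in 75. No place shared more than 7 bases.

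Leftward Tus joins per place numbered 0.533 where 1 base was shared, 1.77 for 2, 2.54 for 3, 6.67 for 4, 5.50 for 5 and 8.38 for 7. Rightward joins per place were fewer at each shared length that both orientations offered, 0.0801 for 1 base, 0.177 for 2, 0.321 for 3, 1.07 for 4 and 1.00 for 5, and reached 4.38 for 6. A place that shares more bases can be reached from more pairs of break points, 1 more than the number of shared bases. Per such pair, leftward joins numbered 0.266 for 1 base, 0.591 for 2, 0.634 for 3, 1.33 for 4, 0.917 for 5 and 1.05 for 7. Leftward counts per pair were highest at 4 bases and did not rise further up to 7. Of the 240 leftward joins at 4-base places, 64 in BRCA1del and 55 in BRCA1flox came from the ACTT match at bait base 142. Counts per pair without it were not computed, so no trend with overlap length is read from these values. Rightward counts per pair were 0.0401 for 1 base, 0.213 for 4, 0.167 for 5 and 0.625 for 6, the last from the GTAACT match. These are pooled joins with no test, since the overlap length chose the members.

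**Figure D2:**
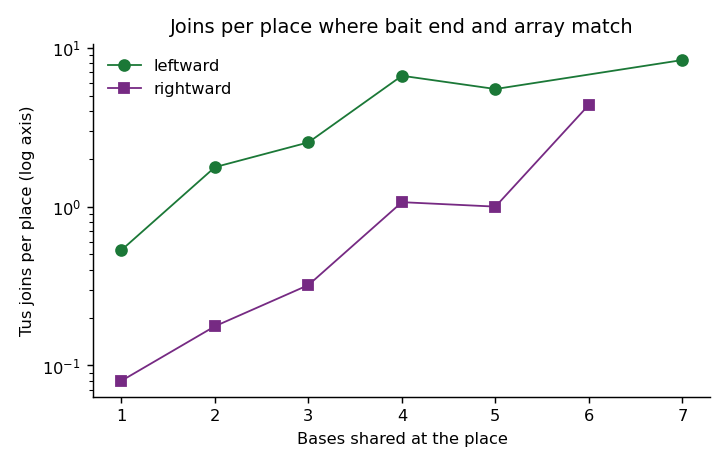
Tus array joins per place where the last 46 bait bases and the array match, on a log axis, against the bases shared there, for leftward and rightward joins. Leftward joins per place number 0.533 at 1 shared base and 8.38 at 7, and rightward joins 0.0801 at 1 and 4.38 at 6. In both orientations the value at 5 bases lies below that at 4.

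The first comparison asked how often array joins used 4 or more shared bases after a Tus-blocked fork and after an I-SceI cut, in BRCA1del cells with siFANCM. With I-SceI, 12 of 385 array joins in run A (3.12%) and 7 of 428 in run C (1.64%) were members. With Tus, the counts were 24 of 342 in run A (7.02%), 18 of 272 in run C (6.62%) and 12 of 71 in run D (16.9%). Each Tus library lay above both I-SceI libraries. Pooled, 7.88% of Tus joins and 2.34% of I-SceI joins were members, a difference of 5.55 points (95% Newcombe interval 3.34 to 7.96; adjusted p = 8.63e-06, Fisher's exact test, Benjamini-Hochberg over 11 comparisons). Over libraries the exact permutation p was 0.30, where 0.10 is the smallest the design allows. EV had 1 array join, which was not a member.

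The difference was smaller among joins in the Ter elements and their spacers. Within the span of the Ter elements, 53 of 611 Tus joins (8.67%) and 8 of 122 I-SceI joins (6.56%) were members, and the difference of 2.12 points missed the threshold (Fisher's exact test, adjusted p = 0.853). At 5 or more bases the counts were 12 and 4, and the difference of 1.26 points missed it as well (Fisher's exact test, adjusted p = 0.245). Of the 19 I-SceI members, 9 lay right of the repeats, from position 3258 on, and 8 within a Ter element; the commonest rightward I-SceI junction of all was position 3265. TTTAGTT at bait base 113 and ACTT at bait base 142 had 3 I-SceI members each, ACTT 2 of them in the flank below, and GAAA at bait base 125 had 2.
ACTT with I-SceI: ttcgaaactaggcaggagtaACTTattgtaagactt
GAAA with I-SceI: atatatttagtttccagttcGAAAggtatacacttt

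BRCA1 genotype was compared across the Tus groups. Members made up 242 of 2806 array joins in BRCA1del (8.62%) and 240 of 2145 in BRCA1flox (11.2%). By library the share ran from 6.62% to 16.9% in BRCA1del (median 8.27%, n = 12) and from 9.39% to 18.9% in BRCA1flox (median 10.5%, n = 9), so the ranges overlapped. Averaged over siRNAs the share was 9.26% in BRCA1del and 12.3% in BRCA1flox. The difference of -3.08 points did not pass the exact permutation of libraries within siRNAs (p = 0.0551). The common odds ratio over siRNAs was 0.740 (95% interval 0.612 to 0.893), which treats the pooled joins as independent and so leaves out the spread between libraries. In 6 of 8 pairs of libraries that shared siRNA and run, BRCA1del had the lower share (mean difference -2.55 points, exact sign-flip p = 0.258; this pairing was added after the data were seen). The permutation passed with joins carrying inserted bases left out (-4.59 points, p = 0.0179), with a minimum of 3 shared bases (-8.65 points, p = 0.0007) and without run D (-1.65 points, p = 0.0432). Without run D the difference was smaller than over all runs. Leaving out run C or run D keeps 1 BRCA1flox library each for siLuciferase, siBLM and siBRCA1. The exact permutation did not pass with a minimum of 5 shared bases (-0.751 points, p = 0.155), of 6 (-0.703 points, p = 0.113) or with all cassette body joins as the denominator (-1.60 points, p = 0.166), each a smaller difference of the same direction, nor without run A (-2.69 points), B (-2.94) or C (-5.05).

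With siLuciferase the share was 9.82%, 8.89% and 7.50% in the BRCA1del libraries of runs B, C and D, and 9.39% and 14.2% in the BRCA1flox libraries of runs C and D. With siBLM it was 8.15%, 10.8% and 7.59% in BRCA1del and 10.5% and 18.9% in BRCA1flox. With siBRCA1 it was 8.39%, 6.77% and 12.6% in BRCA1del and 9.62% and 15.9% in BRCA1flox. With siFANCM the BRCA1del values given above stood against 10.8%, 9.91% and 9.73% in BRCA1flox runs B, C and D. BRCA1del minus BRCA1flox on pooled joins was -1.55 points under siLuciferase, -4.19 under siBLM, -3.02 under siBRCA1 and -2.40 under siFANCM, and none of the 4 passed (Fisher's exact test, adjusted p between 0.160 and 0.670). The 95% intervals reached from -8.25 to -0.459 points for siBLM and from -4.74 to 1.56 for siLuciferase. They take pooled joins as independent and leave out the spread between libraries. Exact permutation over libraries could not pass within 1 siRNA, since the smallest p it allows is 0.10.

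**Figure D3:**
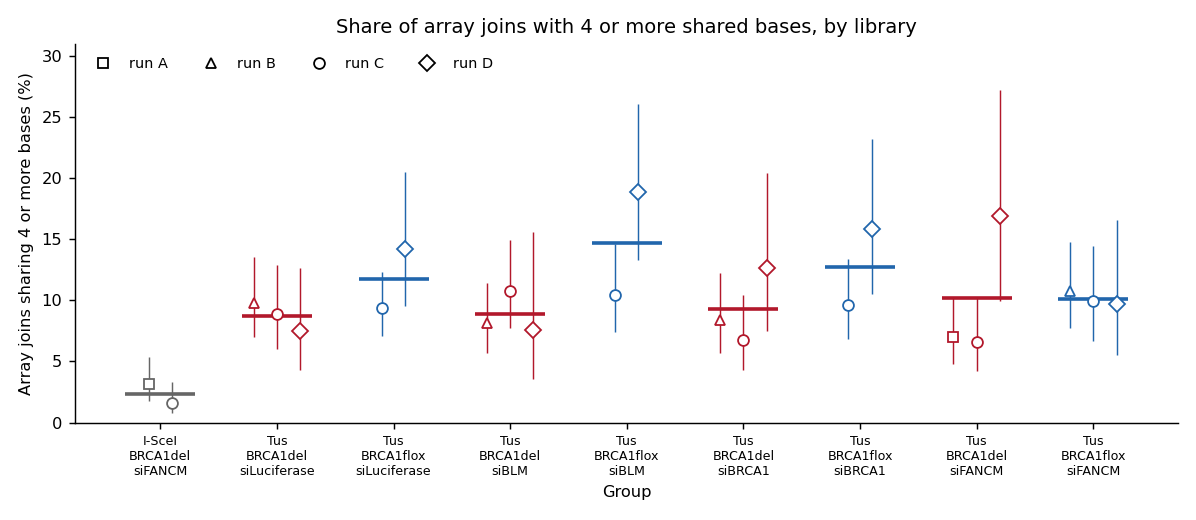
Percent of array joins sharing 4 or more bases in each library, by group; markers give the run, thin bars the 95% Wilson interval of the library and horizontal lines the mean of the libraries. I-SceI libraries lie at 1.64% and 3.12%, and Tus libraries between 6.62% and 18.9%.

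No siRNA moved the member share past the test in either genotype. In BRCA1flox, siBLM differed from siLuciferase by 2.79 points (95% Newcombe interval -1.13 to 6.97), siBRCA1 by 0.873 (-2.84 to 4.82) and siFANCM by -0.262 (-3.62 to 3.10). In BRCA1del the differences were 0.147 (-2.79 to 3.11), -0.597 (-3.55 to 2.43) and -1.11 points (-3.99 to 1.80). By Fisher's exact test the adjusted p lay between 0.379 and 0.928. This test and the intervals take pooled joins as independent. Exact permutation over libraries could not pass, since the smallest p it allows is 0.333 for siBLM and siBRCA1 in BRCA1flox. For the other 4 comparisons it is 0.10. These intervals leave room for differences of several points.

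Overlap lengths within the members showed no genotype difference that passed. Joins with 4 shared bases made up a median of 6.07% of array joins per BRCA1del library (3.38% to 14.1%) and 7.58% per BRCA1flox library (6.19% to 14.7%). Joins with 7 shared bases made up 1.20% (0% to 2.22%) and 1.35% (0.722% to 3.97%). The mean overlap was 4.67 bases in BRCA1del and 4.64 in BRCA1flox, averaged over siRNAs (p = 0.800, exact permutation of libraries). With 3 shared bases, just outside the minimum, were 8.34% of BRCA1del and 13.1% of BRCA1flox joins, and blunt joins, with no shared or inserted base, were 20.5% and 10.2%.

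**Figure D4:**
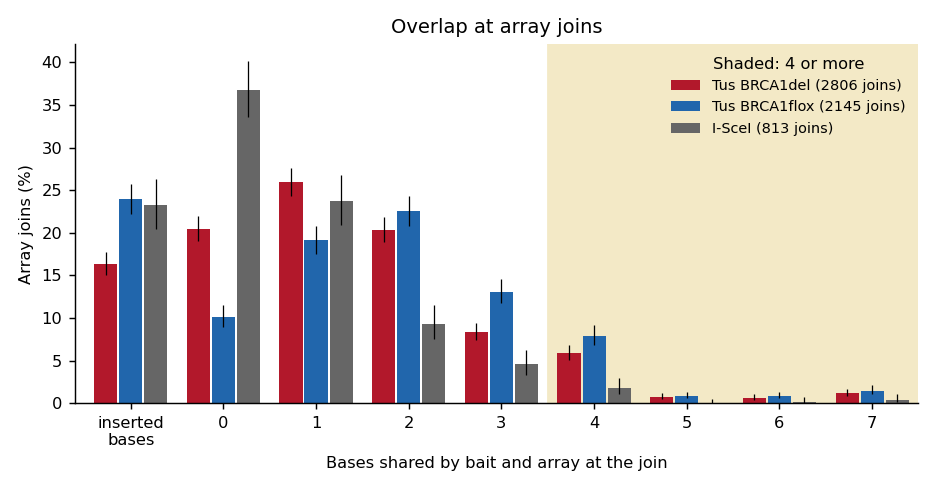
Percent of array joins by the number of bases that bait and array share, with joins carrying inserted bases at the left, for Tus in BRCA1del and BRCA1flox and for I-SceI, all runs pooled; thin bars are 95% Wilson intervals and shading marks members. Joins with 4 shared bases reach 5.92% in BRCA1del, 7.93% in BRCA1flox and 1.85% with I-SceI.

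Bait loss is set in part by the rule, since a member can end only where the bait offers a match of 4 or more bases, so it is described with no test. Among 20 Tus libraries with at least 10 of each, members lacked a median of 19 bait bases (mean of library medians, SD 10.3) and other joins 10.4 (SD 2.34). The mean within-library difference was 8.58 bases, 4.71 without run C, and positive in 14 of 20 libraries. No member lacked fewer than 3 bait bases, since no match of 4 bases ends nearer to the bait's last base; 42.1% of Tus members and 50.6% of other Tus array joins lacked 10 or fewer.

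Members with bait ends before the last 46 bases were commoner in BRCA1flox. They numbered 28 in BRCA1del (0.998% of array joins) and 61 in BRCA1flox (2.84%). By library they ranged from 0% to 2.91% (median 0.744%, n = 12) and from 0.794% to 5.16% (median 2.53%, n = 9), which overlap. Averaged over siRNAs the difference was -1.68 points (p = 0.0106, exact permutation of libraries), in a split chosen after the values were seen and not adjusted for it. Within run B the shares were 0.941% and 2.36%, within run C 1.00% and 2.90%, and within run D 1.45% and 2.98%. Other array joins with such bait ends went the same way, 9.97% against 17.3% averaged over siRNAs (-7.33 points, p = 0.0002, exact permutation of libraries), so the shift was not particular to members. Among joins with these long losses, members made up 9.83% in BRCA1del and 13.6% in BRCA1flox (p = 0.223, exact permutation of libraries). Members with the bait end in the last 46 bases made up 8.11% and 9.51% of array joins (-1.40 points, p = 0.293, exact permutation of libraries).

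Single matches of this kind were named after their values were seen. AGTT at bait base 40 had 1 BRCA1del and 11 BRCA1flox members, and TTAGT at bait base 52 had 3 and 11. In the other direction, AACTA at bait base 128, a rightward 5-base match, had 8 BRCA1del members and 0 of 2145 in BRCA1flox, which allows a share of up to 0.140%. None of them reached the 20 Tus joins set for a test.

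For the test of single join sequences, 22 recurred in 20 or more Tus joins, of which 8 were member joins. Between genotypes 1 of the 22 passed (4.55%; adjusted p = 0.0242, exact permutation of libraries with Benjamini-Hochberg adjustment), and it shared 2 bases and was no member. None of the 8 member joins passed: 0 had an unadjusted p under 0.05, their lowest adjusted p was 0.462, and the Cochran-Mantel-Haenszel test on pooled joins called 0 of the 22. The first ACTT join shown stays in the Ter element for the 12 bases after the match. It made up 1.90% of array joins in BRCA1del and 1.64% in BRCA1flox, averaged over siRNAs, while the library medians ran the other way, 1.18% and 1.72%. Its highest library was BRCA1del siFANCM run D, the smallest Tus library, with 6 joins (8.45%). TTTAGTT made up 1.05% and 1.38%, AGTT 1.02% and 1.27%, and the rightward AGTA 0.459% and 0.637%. The median difference was -0.179 points over the 8 member joins and -0.199 over all 22.

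The matches that bait and array offer in each orientation also set which members can form, so orientation against other joins is described with no test. In Tus libraries 81 of 482 members (16.8%) and 450 of 4469 other array joins (10.1%) were rightward. By library the rightward share was 16.4% ± 11.1 for members and 9.81% ± 5.22 for other joins (SD, n = 20), with members higher in 15 of 20 libraries. The GTAACT match at bait base 141, the commonest rightward one, gave 18 of the rightward members in BRCA1del and 17 in BRCA1flox. Without it 46 of 447 members (10.3%) were rightward, a set chosen after the data were seen; leaving out the commonest rightward match can only lower this share, and no leftward match was left out beside it.

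Rightward shares differed between overlap lengths, as did the matches on offer. Of Tus joins with 4 shared bases 10.7% were rightward, with 5 shared bases 22.0%, with 6 shared bases 94.7% and with 7 shared bases 0%; the last had 67 joins and no rightward 7-base place in the last 46 bait bases. All 9 rightward 5-base Tus joins came from BRCA1del, 8 of them from the AACTA match at bait base 128, which was named after its values were seen. This count was not tested. Members were rightward in 18.2% in BRCA1del and 13.3% in BRCA1flox, averaged over siRNAs (4.93 points, p = 0.278, exact permutation of libraries). Other array joins were rightward in 13.0% and 6.17% (6.80 points, p = 0.00085, exact permutation of libraries). Whether the genotype difference in orientation itself differs between members and other joins was not tested.

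Place in the array was read from reads that run at least 20 bases past their 116-bp repeat and so fit 1 copy. They held 374 of 401 leftward and 77 of 81 rightward Tus members. Leftward members lay at a median position of 3106 (interquartile range 3070 to 3186), against 3084 (3062 to 3174) for other leftward joins. Of placed leftward members 81.8% lay within a Ter element, against 71.5% of other joins; for rightward joins the shares were 94.8% and 75.5%. The shared bases fix where a member can lie, so these shares describe the matches and were not tested.

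Because the Ter elements are identical, a join that ends inside one can form at all 6 with the same shared bases. Counts were taken over the 7 leftward join sequences with 10 or more members that lie wholly inside the element, their 12 following array bases included. ACTT joins whose following bases leave the element were not counted. The placed Tus reads numbered 63 at Ter 1, 37 at Ter 2, 23 at Ter 3, 40 at Ter 4, 26 at Ter 5 and 15 at Ter 6. Within each repeat the count fell from the first to the last element. Other leftward joins had the same order within repeats, 981, 618 and 228 at Ter 1 to 3 and 445, 298 and 135 at Ter 4 to 6. For the rightward AGTA join the counts were 4, 4, 4, 3, 6 and 6, too few to order. Ter 1 spans positions 3048 to 3070 and Ter 6 positions 3222 to 3244, in cassette coordinates rather than those of a genome build.

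**Figure D5:**
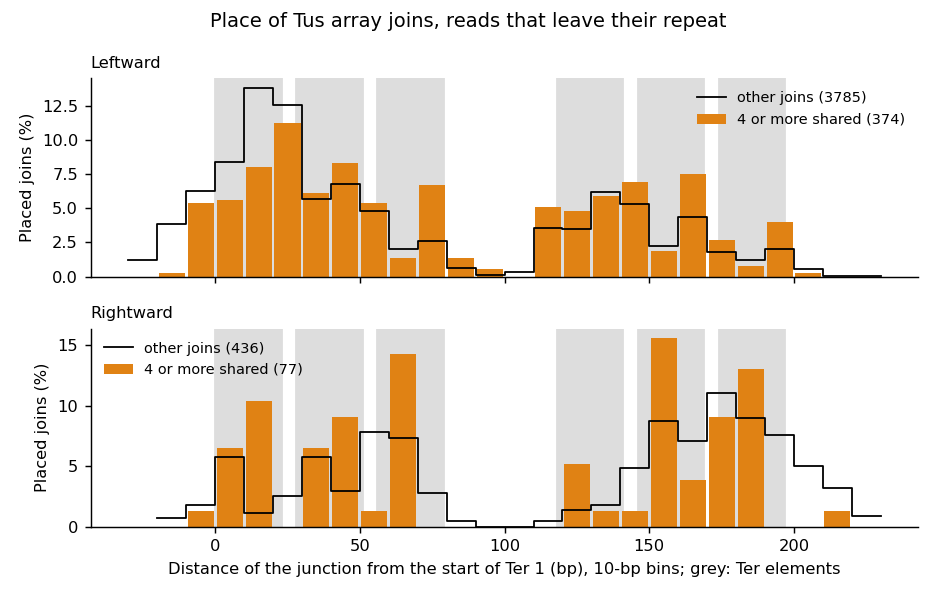
Percent of placed Tus joins in 10-bp bins by distance of the junction from the start of Ter 1, for leftward (top) and rightward (bottom) joins; bars are members, the black line other array joins and grey bands the 6 Ter elements. The 374 leftward members spread over both repeats, and the 77 rightward members gather inside Ter elements.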

How the data were processed

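LAM-HTGTS junctions came from genomic DNA of mouse embryonic stem cells. A table for each group was deposited by the authors, whose rows each give a junction's position, strand, alignment start and end, and read; the values are positions, not counts. The submitters' processing notes name Bowtie2 and mm9; filters and duplicate removal are not given in the sources used here. Both members and lists were chosen with earlier results of these data known.

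The bait was rebuilt as the majority consensus after the 5-base barcode, extended while the top base held 50% of reads, and the cassette by majority vote of prey bases. Matches grew from exact seeds of 10 (bait) and 12 (prey) bases. The deposited coordinates held 1 base after position 3138 that the reads lack. Among reads whose rebuilt and deposited positions differed by 0 or 1 base, 3181 of 3181 left of it and 878 of 878 right of it then sat at their deposited position. Position 3138 was chosen to make this agreement largest, and reads with other differences were left out. These counts are therefore no independent check of the coordinates. Bait bases missing are counted from the consensus end, base 145, which need not be the cut itself. The 8 array joins without both seeds were left out. A join sequence is a bait end, its shared bases and the 12 array bases after them; named were the 10 commonest, the 5 with the longest overlap, the 3 commonest with I-SceI and the 3 commonest rightward with Tus, and any recurrent member join past the threshold. Further matches are marked where chosen after their values were seen.

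Shares were compared with Fisher's exact test on pooled joins, exact permutation of libraries within siRNAs, and sign-flips over libraries (scipy 1.17.1, statsmodels 0.14.6, numpy 2.4.6, pandas 2.3.3), two-sided, with a threshold of 0.05. Sign-flip tests of bait loss and orientation against other joins were planned but are not reported, since the rule limits where members can end. Structure calling and the permutation test were tested on simulated data. All simulated libraries of a genotype had the same expected share, so a spread between libraries beyond counting error was not simulated. Alternatives were the minimum overlap, counting each position once, the Ter span, the denominator, insertions, shared runs and leaving out runs.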

Additional observations from a re-analysis of the deposited data

How the results depend on the processing

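No paired analysis was possible because each table merges its group's samples, so no read can be tied to a labelled replicate number; pairing libraries by siRNA and run instead gave -2.55 points for genotype (exact sign-flip p = 0.258). The cause of the changes below was not tested. Differences are in percentage points of array joins. Over siRNAs, passing refers to the exact permutation of libraries. Within 1 siRNA, and for Tus against I-SceI, it refers to Fisher's exact test on pooled joins, which leaves out the spread between libraries. Exact permutation over the libraries of those comparisons allows no p below 0.10, so it could not pass there. With a minimum of 3 bases, BRCA1del minus BRCA1flox passed over siRNAs (-8.65) and within siLuciferase (-6.42), siBLM (-10.2), siBRCA1 (-7.88) and siFANCM (-6.05), while siBLM in BRCA1del (-0.935) and siBRCA1 in BRCA1flox (-1.06), each against siLuciferase, turned. With 5, Tus against I-SceI no longer passed (1.26); the genotype difference with siBLM (0.129), siBRCA1 in BRCA1del (1.17) and the mean overlap (-0.0357 bases) turned; and rightward share (21.9) and bait loss (22.8 bases) against other joins rested on 4 libraries. With 6, Tus against I-SceI did not pass (0.968), and siLuciferase genotype (0.0369), siBRCA1 in BRCA1del (0.590) and siFANCM in BRCA1flox (1.25) turned. Over the Ter span these were 2.12 for Tus against I-SceI (not passing), and 0.00883 for siBRCA1 in BRCA1del and 0.293 for siFANCM in BRCA1flox (turned). With insertions left out, genotype passed over siRNAs (-4.59) and with siBLM (-7.08), and siBLM in BRCA1del (-0.148) and siBRCA1 in BRCA1flox (-0.384) turned. With all cassette body joins as denominator, siLuciferase genotype (0.0390), siBLM in BRCA1del (-0.0353) and siFANCM in BRCA1flox (0.392) turned. Over shared runs, siFANCM in BRCA1del turned (0.374). Without the commonest rightward match the rightward difference was 0.376. Of the recurrent join sequences 0 passed with a minimum of 10 joins (77 tested) or by the Cochran-Mantel-Haenszel test, by which AGTA at bait base 138 turned (log2 odds ratio 0.0517). Leaving out 1 run at a time, genotype ran from -5.05 to -1.65 over siRNAs. With siBLM it ran from -10.8 (without C) to -1.14 and with siLuciferase from -5.14 to 0.00822. With siBRCA1 it ran from -6.32 (without C) to -2.02 and with siFANCM from -3.56 to -1.53 (without A). Without run C or run D, BRCA1flox keeps 1 library each with siLuciferase, siBLM and siBRCA1. Against siLuciferase, siBLM in BRCA1del ran from -1.01 to 1.74, siBRCA1 from -1.80 to 0.496 and siFANCM from -2.56 to -0.248; in BRCA1flox siBLM ran from 1.08 (without D) to 4.69 (without C), siBRCA1 from 0.228 to 1.68 and siFANCM from -3.71 to 1.01. Rightward share of members by genotype ran from 2.96 (without A) to 8.79 (without D). Bait loss ran from 4.71 to 11.7 bases, mean overlap from -0.0913 to 0.119 bases, and calls among recurrent joins from 0 to 1; single joins ran from -0.923 to 0.133 for TTTAGTT and from -0.400 to 0.157 for AGTA, both turning without run D. Libraries with few joins limit the precision: 71 array joins in the smallest Tus library.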

Other observations

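Joins left of the array gave values outside the comparisons above. At cassette positions 2500 to 3024, 31 of 442 called Tus joins in BRCA1del (7.01%, 95% Wilson interval 4.98 to 9.78) and 78 of 545 in BRCA1flox (14.3%, 11.6 to 17.5) shared 4 or more bases with the bait. With I-SceI 8 of 45 did (17.8%, 9.29 to 31.3). The commonest were GGCA at bait base 132 (19 Tus joins) and AACTT at bait base 142 (12), so the bait stretch before base 142 that served ACTT joins in the array also served joins here. These pooled shares were not tested.

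Members were seldom repeated. Counting each position, strand and bait end once per library left 492 of the 501 members, and 1 member repeated another of its library in both ends of the alignment. Over all libraries 23 members repeated an earlier one in position, strand, bait end and far end. None of the shared joins lay in runs C and D of 1 group, which does not tell whether those runs are separate libraries. Run D gave the higher member share than run C in 5 of the 8 groups sequenced in both.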
